A study of Mus musculus with 22 samples.

Results

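The 9 genes that encode the AMPA and kainate subtypes of ionotropic glutamate receptor were followed through total RNA sequencing of mouse right brain hemispheres. They were chosen by symbol, Gria1 to Gria4 for the AMPA receptor and Grik1 to Grik5 for the kainate receptor, and each symbol was found in both count tables, so that 9 of 24421 genes were members. All 9 passed the filter on low counts in every comparison. The animals were untreated C57BL/6JOlaHsd mice without a transgene, of an inbred strain with black coat. They were housed 4 per cage and were 10 to 12 weeks old when ranked by the tube test, a contest of 2 mice over the way through a narrow tube. The most dominant and the most submissive mouse of a cage were sequenced, which gave 7 dominant and 7 submissive males from 7 cages and 4 dominant and 4 submissive females from 4 cages. Cage mates have the same replicate number. The cages of female replicates 1 and 2 carry a number in the library names and those of replicates 3 and 4 a group label, Gr1 and Gr2. By the study's methods, females of intermediate rank were put together in new groups and ranked again, and the labels do not say whether Gr1 and Gr2 are such groups. Males and females were deposited in separate tables whose library names point to different sequencing sets, so sex and library set cannot be told apart.

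Ionotropic glutamate receptors are cation channels assembled from 4 subunits that open when glutamate binds. AMPA receptors carry most of the fast excitatory current at brain synapses, and the number and kind of their subunits set synaptic strength. The subunit encoded by Gria2 keeps calcium out of the channel once its transcript has been edited. Kainate receptors act on both sides of the synapse, where they adjust transmitter release and excitability; the subunits of Grik1, Grik2 and Grik3 bind glutamate with low affinity and can form channels by themselves, while the high-affinity subunits of Grik4 and Grik5 need one of these as a partner. Counts per gene do not separate splice forms or edited transcripts.

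Between 12403943 and 16488762 reads per sample were counted on genes. The labelled tissue was checked with markers of 16 brain cell types and regions. Neuronal, glial, cortical, hippocampal and striatal markers were present in all 22 samples, and the library of dominant male 1 stood apart in the cerebellum. There the summed level of 4 granule cell markers was 16.8 CPM (reads of a gene scaled by its library total), against 244 to 607 CPM in the other 21 samples, and that of 5 Purkinje cell markers was 32.9 CPM against 313 to 770 CPM. The Purkinje cell gene Pcp2 had 0 counts there and the granule cell gene Gabra6 had 7. In whole hemispheres fewer cells of a type and less RNA per cell cannot be told apart.

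On the mm10 build Gria1 lies at chr11:57011618-57330244, Gria2 at chr3:80684936-80802791, Gria3 at chrX:41401301-41678601, Gria4 at chr9:4417893-4796234, Grik1 at chr16:87895897-88290258, Grik2 at chr10:49099463-49788754, Grik3 at chr4:125490831-125714173, Grik4 at chr9:42520412-42944371 and Grik5 at chr7:25009851-25072369. None of the 9 shares exon bases with another gene of the tables. The members are related in sequence, which bears on whether a read can be placed. Coding sequences of 2 AMPA subunits were 66.3% to 71.8% identical, those of the 3 low-affinity kainate subunits 69.2% to 72% and those of Grik4 and Grik5 70.5%, while an AMPA and a kainate subunit shared 45.8% to 51.2%. The longest identical run between protein-coding transcripts of 2 members was 57 bases, in Gria3 and Gria4. A read had 85 bases before trimming, and unique placement of reads was not tested. The most alike stretch of 60 bases without a gap in the aligned coding sequences is printed for 8 of the 9 members, because it shows both the family's shared core and the bases by which reads are assigned. It encodes part of the third membrane segment, which lines the channel pore and is the hallmark of ionotropic glutamate receptors. Capitals mark the 37 bases that are identical in all 9 genes.

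Gria1: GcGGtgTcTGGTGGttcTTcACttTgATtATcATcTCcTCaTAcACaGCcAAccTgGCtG
Gria2: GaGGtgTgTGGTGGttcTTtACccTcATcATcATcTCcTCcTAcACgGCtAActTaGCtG
Gria4: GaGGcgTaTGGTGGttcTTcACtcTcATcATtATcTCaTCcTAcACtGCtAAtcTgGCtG
Grik1: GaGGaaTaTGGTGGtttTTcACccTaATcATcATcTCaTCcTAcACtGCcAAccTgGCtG
Grik2: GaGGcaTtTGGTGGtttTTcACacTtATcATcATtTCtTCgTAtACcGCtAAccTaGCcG
Grik3: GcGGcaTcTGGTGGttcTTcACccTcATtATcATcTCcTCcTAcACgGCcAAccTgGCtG
Grik4: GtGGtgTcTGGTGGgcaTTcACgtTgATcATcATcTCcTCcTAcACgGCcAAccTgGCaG
Grik5: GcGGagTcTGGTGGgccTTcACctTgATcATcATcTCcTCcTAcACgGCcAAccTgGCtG

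The stretch lies at chr11:57283533-57283592 in exon 12 of Gria1, chr3:80702574-80702633 in exon 12 of Gria2 and chr9:4462022-4462081 in exon 13 of Gria4. In the kainate genes it lies at chr16:87936014-87936073 in exon 14 of Grik1, chr10:49240695-49240754 in exon 13 of Grik2 and chr4:125694004-125694063 in exon 13 of Grik3. It is divided by an intron between exons 14 and 15 of Grik4 (chr9:42543874-42547576) and between exons 15 and 16 of Grik5 (chr7:25015924-25022450). The sequences are written in the direction of the transcript, which is the plus strand for Gria1 and Grik3 and the minus strand for the others.

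AMPA receptor transcripts were more abundant per length than kainate receptor transcripts in every sample. Levels between genes are given as RPKM, the CPM divided by the exon length of the gene in kilobases. The summed level of the 4 Gria genes was 4.81 ± 0.211 (SD, n = 22) times that of the 5 Grik genes, with a range of 4.54 to 5.29. Gria2 had the highest level, 156 ± 8.56 RPKM (SD, n = 22), followed by Gria1, whose product is the subunit added to synapses during potentiation, with 81.1 ± 3.29 RPKM. Gria2 was above Gria1 in 22 of 22 samples and their ranges did not overlap. Gria4, at 54.6 ± 4.98 RPKM, and Gria3, at 54.4 ± 3.82 RPKM, did not differ beyond their spread with the deposited exon lengths, since Gria4 was the higher in only 12 of 22 samples. Among kainate subunits Grik2 stood first with 35.9 ± 3.1 RPKM and was above each other Grik gene in all 22 samples. Grik5 had 15.1 ± 1.86 RPKM, Grik1 had 9.2 ± 0.899 RPKM, Grik3 had 7.06 ± 1 RPKM and Grik4 was lowest with 4.83 ± 0.447 RPKM. Within one sample these neighbours kept their order, Grik5 above Grik1 and Grik3 above Grik4 in 22 samples and Grik1 above Grik3 in 21, although their ranges over all samples overlapped. As a share of the AMPA total, Gria2 made up 45% ± 1.11, Gria1 23.5% ± 0.757, Gria4 15.8% ± 1.48 and Gria3 15.7% ± 0.741 (SD, n = 22). Grik2 made up 49.8% ± 3.07 of the kainate total. The order and the shares depend on the exon length given to each gene. With the longer GENCODE exon models, in which Gria2 has 15548 exon bases in place of 7749, Gria1 at 80.2 RPKM stood above Gria2 at 77.6 RPKM in 16 of 22 samples, and Grik3 at 6.95 RPKM stood above Grik1 at 5.01 RPKM. Gria4 and Gria3 were then apart, at 53.3 ± 4.86 and 29.4 ± 2.06 RPKM (SD, n = 22), with Gria4 the higher in 22 of 22 samples. Grik2 fell to 13.2 RPKM beside Grik5 at 11.2 RPKM and was the higher in 20 of 22 samples. The shares moved as well, to 32.3% ± 1.05 of the AMPA total for Gria2, 33.4% ± 1.1 for Gria1, 22.2% ± 1.93 for Gria4 and 12.2% ± 0.635 for Gria3, and to 33.8% ± 3.02 of the kainate total for Grik2. The summed Gria level was 5.49 to 7.21 times the summed Grik level with these lengths.

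**Figure D1:**
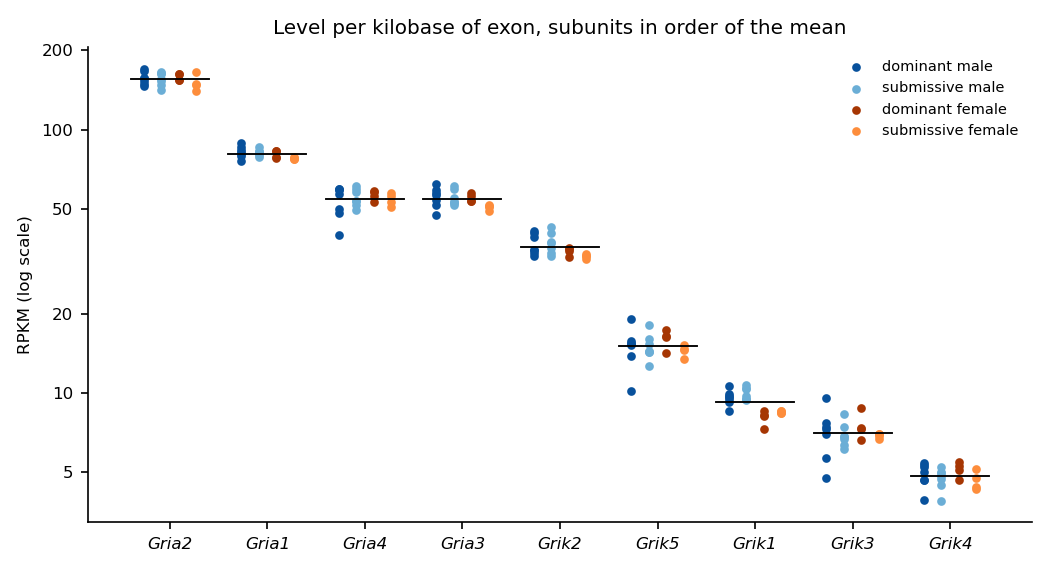
Level of each subunit gene in RPKM (log axis) in 22 samples, with genes in the order of their mean. Points are samples coloured by group and black lines are means over all samples; Gria2 lies between 141 and 171 RPKM, above every other gene, and Grik4 lies between 3.89 and 5.46 RPKM.

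Rank in males addresses whether the top and the bottom animal of a cage differ in receptor expression. None of the 9 members differed by rank in males. Ranges in CPM are given as the lowest, the median and the highest of 7 samples, and a log2 fold change above 0 means a higher mean in dominant mice. With edgeR's quasi-likelihood test and p adjusted by Benjamini-Hochberg, 0 of 9 members and 0% of the 14737 genes tested were called, and at an unadjusted p under 0.05 the count was 0 of 9 members against 1.32% of genes. DESeq2 also called 0 of 9. The log2 fold changes of the members lay between -0.057 and 0.050 with a median of 0.0037, beside a median of -0.0015 over all genes.

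Among AMPA subunits, Gria2 ranged from 1133 through a median of 1215 to 1322 CPM in dominant males and from 1092 through 1204 to 1279.8 CPM in submissive males. Gria1 ranged from 456 through 493 to 533 CPM and from 469 through 490 to 513 CPM. Gria3 ranged from 253 through 300 to 329 CPM and from 276 through 283 to 326 CPM. For these 3 genes the ranks covered nearly the same range, and the log2 fold changes were 0.010 (SE 0.0357) for Gria1, 0.011 (SE 0.0443) for Gria2 and 0.0037 (SE 0.0548) for Gria3, each with an adjusted p of 1. Gria4 varied most among the AMPA subunits, from 245 through 349 to 367 CPM in dominant and from 305 through 330 to 375 CPM in submissive males. Its lowest value was that of dominant male 1, the library with almost no cerebellar markers, and the next lowest dominant male had 296 CPM. The log2 fold change of Gria4 was -0.057 (SE 0.0777, adjusted p = 1) with that library and 0.0026 (SE 0.06, adjusted p = 1) without it.

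Kainate subunits overlapped between the ranks in the same way. Grik2 ranged from 162 through 170 to 201 CPM in dominant and from 162 through 181 to 208 CPM in submissive males, and Grik1 from 31.2 through 35.3 to 38.9 CPM and from 34.3 through 35.6 to 39 CPM. Grik4 ranged from 13.6 through 17.5 to 18.9 CPM and from 13.6 through 16.9 to 18.2 CPM. Their log2 fold changes were -0.016 (SE 0.0631), -0.050 (SE 0.0503) and 0.050 (SE 0.0766), with adjusted p of 1. The widest spread belonged to Grik3 and Grik5. Grik3 ranged from 42.1 through 64.4 to 84.5 CPM in dominant males, a coefficient of variation of 21.8%, and from 53.9 through 60.1 to 73.7 CPM in submissive males. Grik5 ranged from 38.9 through 58.6 to 73.1 CPM and from 48.6 through 55.3 to 69.5 CPM. In both genes dominant male 1 was the highest and dominant male 6 the lowest of all 14 males, so the 2 ends of the range fell in the same rank. The log2 fold changes were 0.023 (SE 0.112) for Grik3 and -0.0046 (SE 0.0994) for Grik5, and without dominant male 1 they were -0.065 (SE 0.0973) and -0.071 (SE 0.0918), all with an adjusted p of 1. Without dominant male 6 they were 0.1005 (SE 0.0921) and 0.0721 (SE 0.076), and neither gene was called.

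**Figure D2:**
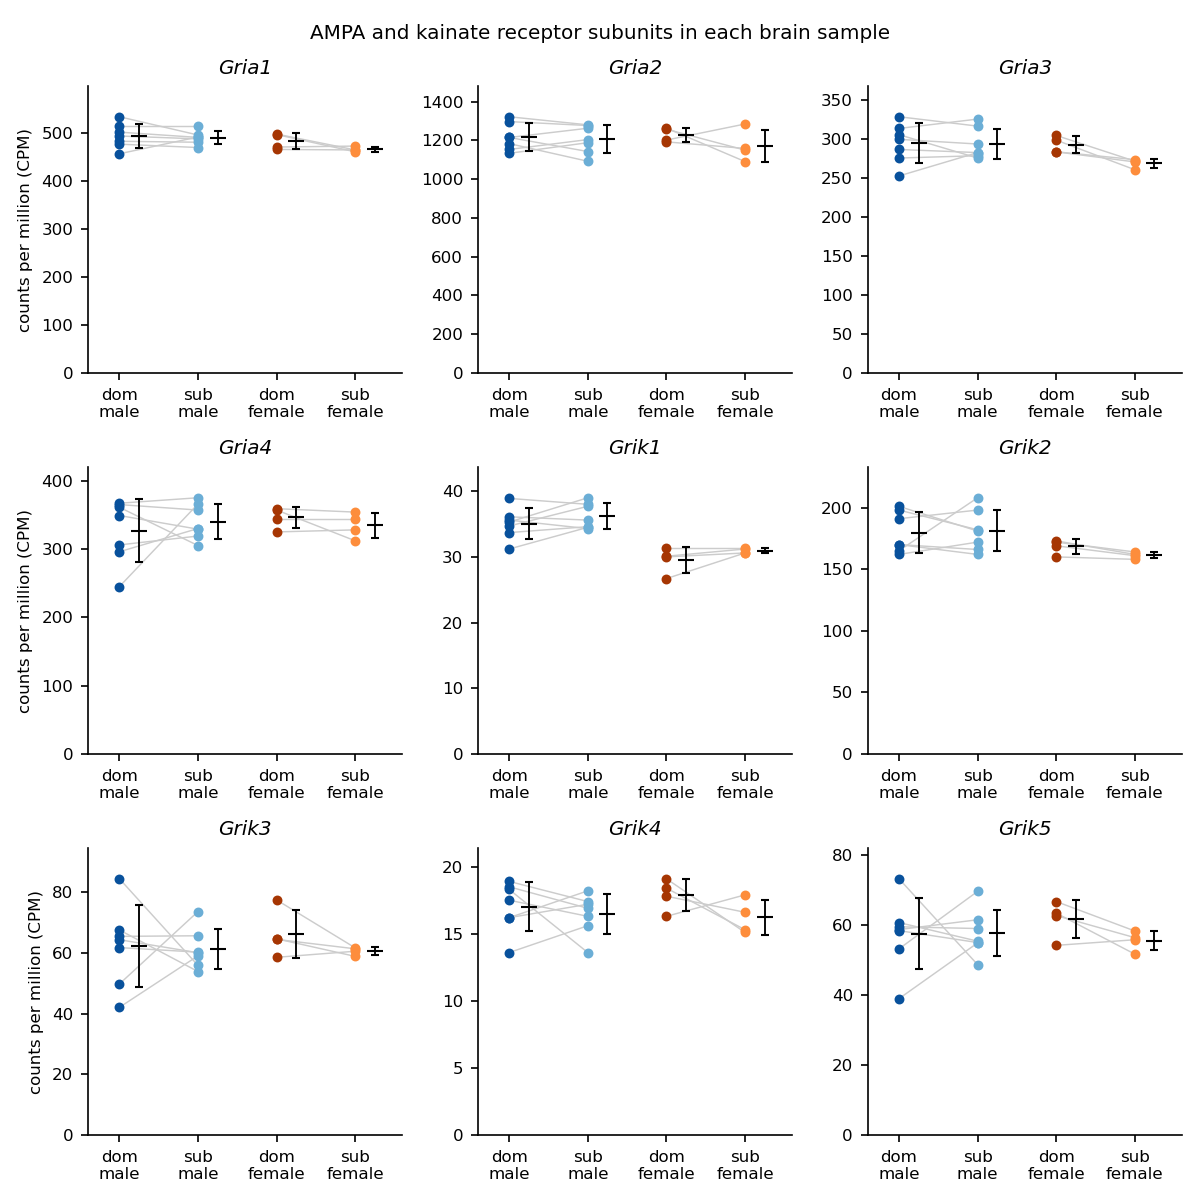
CPM of each subunit gene in every sample, by group, with axes from 0. Points are samples, grey lines join the dominant (dom) and submissive (sub) mouse of a cage, and the black marks are the mean and SD of each group; within a sex the 2 ranks overlap in every panel except Gria3 in females, where the 4 dominant samples lie between 284 and 305 CPM and the 4 submissive ones between 261 and 274 CPM.

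In females 8 of 9 members had a higher mean in dominant than in submissive mice, and none was called. The test called 0 of 9 members and 0.0942% of the 14865 genes tested. DESeq2 called 0 of the 7 members to which it gave an adjusted p, and gave none to Grik1 and Grik4. At an unadjusted p under 0.05 there were 2 of 9 members, Gria3 and Grik5, against 10.5% of all genes. The members' median log2 fold change was 0.062, beside -0.0020 over all genes.

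Gria3, the X-linked AMPA subunit gene, had 284, 284, 299 and 305 CPM in the dominant females and 271, 274, 261 and 272 CPM in the submissive females. The 2 ranks did not overlap, which with dominant females on top was true of 3.36% of genes tested, and the dominant mouse was the higher in 4 of 4 cages. The log2 fold change was 0.11 (SE 0.0316, 8.06% higher), with an unadjusted p of 0.00213 and an adjusted p of 0.187. An exact permutation test of log2 CPM, two-sided, gave p = 0.0286 without adjustment, the smallest that 4 against 4 samples allows, and the paired exact test over 4 cages gave its smallest value, p = 0.125. Over the fits that kept all 4 cages or left out 1 sample the adjusted p of Gria3 lay above 0.05, at 0.0763 with DESeq2.

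The other AMPA subunits overlapped between the ranks. Gria2 had 1257, 1201, 1263 and 1192 CPM in dominant and 1149.7, 1284, 1090.4 and 1158 CPM in submissive females. Gria1 had 470, 465, 497 and 496 CPM and 472, 464, 464 and 460 CPM. Both dominant females of the groups Gr1 and Gr2 lay above all submissive females in Gria1, while those of the numbered cages did not. Gria4 had 344, 357, 359 and 325 CPM and 344, 312, 354 and 328 CPM. The log2 fold changes were 0.062 for Gria2 (SE 0.0388, adjusted p = 0.619), 0.043 for Gria1 (SE 0.0295, adjusted p = 0.662) and 0.045 for Gria4 (SE 0.0398, adjusted p = 0.759). With a correction for each library's trend of counts on exon length these 3 values became 0.016, 0.014 and 0.014, and that of Gria3 0.090.

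Of the kainate subunits Grik5 had the largest log2 fold change. It had 62.6, 54.1, 63.3 and 66.6 CPM in dominant and 56.3, 55.7, 51.6 and 58.2 CPM in submissive females, so that 3 dominant females were above all submissive ones and the dominant female of replicate 2 was not. The log2 fold change of Grik5 was 0.14 (SE 0.0546, adjusted p = 0.346). Grik3 had 64.5, 58.6, 64.7 and 77.5 CPM and 61.4, 60.6, 58.9 and 61.7 CPM. Dominant female 4 was the highest, and the log2 fold change was 0.12 (SE 0.0598, adjusted p = 0.506), 0.066 with the exon length correction. Grik4 had 16.3, 19.1, 18.4 and 17.8 CPM and 17.9, 15.1, 15.3 and 16.6 CPM. The ranks overlapped, and its log2 fold change was 0.13 (SE 0.0745, adjusted p = 0.562). Grik2 had 169, 172, 173 and 160 CPM and 161, 164, 162 and 158 CPM. It was higher in the dominant female of all 4 cages, by little, and its log2 fold change was 0.055 (SE 0.0331, adjusted p = 0.605). Grik1 went the other way, with 26.7, 31.3, 30 and 30.1 CPM in dominant and 30.6, 31.3, 30.6 and 31.2 CPM in submissive females. Its log2 fold change was -0.074 (SE 0.0558, adjusted p = 0.701), and only the dominant female of replicate 1 lay far from the rest.

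The summed level of the 4 cortex markers was 188 to 220 CPM in dominant and 171 to 178 CPM in submissive females, without overlap. By edgeR none of the 4 markers was called, and 3 were higher at an unadjusted p under 0.05, against 6.43% of all genes higher and 10.5% in either direction. All 4 markers were detected in each library. The summed level of the 4 hippocampus markers was 107 to 113 CPM in dominant and 101 to 106 CPM in submissive females, with 2 markers higher at that threshold. In the other direction both choroid plexus markers, 1 of 2 ependyma markers and 1 of 2 Bergmann glia markers were lower in dominant females at that threshold, with summed levels of 662 to 820 against 634 to 960 CPM, 8.76 to 11.3 against 10.7 to 15 CPM and 48.4 to 58.4 against 58.2 to 62.3 CPM. None of these was called. The part of these markers in the values of Gria3 and Grik5, and in those of the partner genes described below, was not tested.

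The difference between the sexes' rank effects was tested directly over all 22 samples. It called 0 of 9 members and 0% of 15233 genes, and at an unadjusted p under 0.05 the count was 0 of 9 against 3.32% of genes. The largest values were 0.16 for Grik5 (SE 0.145, adjusted p = 0.999) and 0.11 for Gria3 (SE 0.0782, adjusted p = 0.999). The other 7 members lay between -0.018 and 0.11. A rank difference confined to one sex was therefore not shown for any member.

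**Figure D3:**
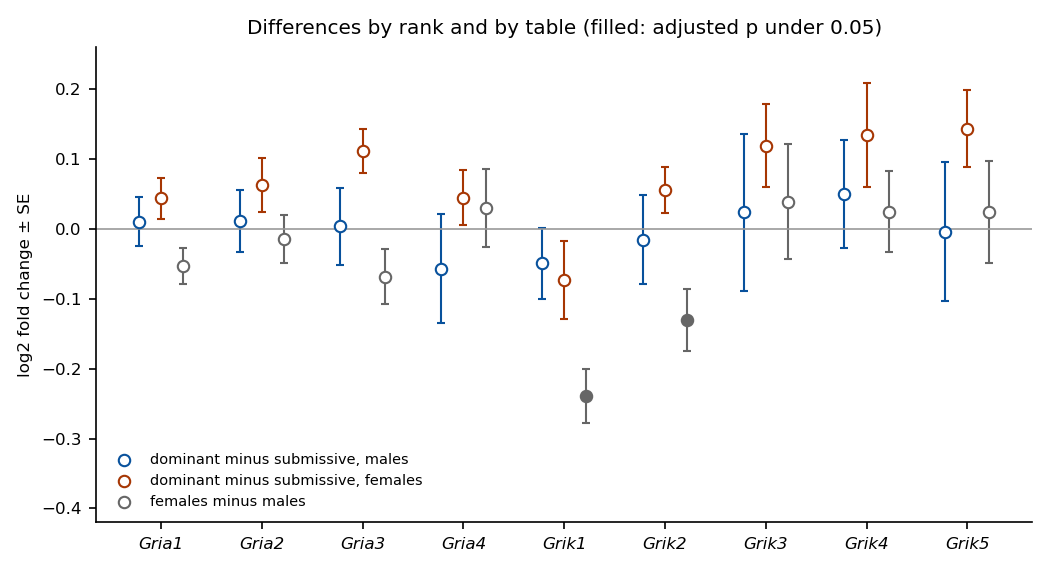
Log2 fold change ± SE of each subunit gene for rank in males, rank in females and females minus males, from edgeR. Filled points have an adjusted p under 0.05: Grik1 at -0.24 and Grik2 at -0.13 in the comparison of the tables, and none by rank.

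Cage mates share housing and were sacrificed at the same time, so cage was tested as a term beside rank. Their libraries also carry neighbouring numbers in the library names, so cage and library order cannot be told apart. In males 0 of 9 members were called, against 5.89% of 14737 genes. At an unadjusted p under 0.05 there were 2 of 9 members, against 22.3% of genes. These were Gria3 (F = 5.11, adjusted p = 0.075) and Gria2 (F = 4.29, adjusted p = 0.111), and the other 7 had F between 1 and 2.53. Gria3 was high in both mice of replicate 1, with 329 and 317 CPM, and of replicate 4, with 314 and 326 CPM, and lowest in dominant male 6, with 253 CPM. Gria2 was likewise high in both mice of replicate 4, with 1322 and 1279.8 CPM, and of replicate 1, with 1297 and 1276 CPM. For both genes the SD of the cage means in log2 CPM, 0.101 for Gria3 and 0.0759 for Gria2, was above the SD within cages, 0.0685 and 0.0536. For Grik3 and Grik5 the SD within cages was 0.292 and 0.252, and that of the cage means 0.145 and 0.137. A mean of cage mates varies less than a single mouse, so the SDs of both kinds are not on one scale. The cage term gave F = 1 for Grik3 and 1.11 for Grik5, and neither was called. Without the cage of replicate 1, which holds dominant male 1, the cage term called 1 of 9 members, Grik2 (F = 6.8, adjusted p = 0.021), and 12.5% of 14738 genes, so that 1 of 9 is near the background. Grik2 averaged 190 ± 13.8 CPM (SD, n = 8) in the cages of replicates 1 to 4 and 167 ± 4.61 CPM (SD, n = 6) in those of replicates 5 to 7.

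In females the cage term called 0 of 9 members, against 0.074% of 14865 genes, and at an unadjusted p under 0.05 it named Grik3 (F = 3.41, adjusted p = 0.952), 1 of 9 members against 5.11% of genes. The other 8 had F between 0.0314 and 2.42. The groups Gr1 and Gr2 were also set against the numbered cages with rank in the model. Again 0 of 9 members were called, against 0.00673% of genes, and 0 of 9 had an unadjusted p under 0.05, against 5.54%. Grik3 had the largest log2 fold change, 0.097 (SE 0.0569, adjusted p = 0.903), with 58.9 to 77.5 CPM in the groups Gr1 and Gr2 and 58.6 to 64.5 CPM in the numbered cages. The log2 fold change by rank was also computed within each set of cages. For Gria3 it was 0.17 in the groups Gr1 and Gr2 and 0.057 in the numbered cages, for Grik5 0.23 and 0.058, and for Gria4, which went the other way, -0.0081 and 0.097. The test of that difference called 0 of 9 members and 0% of 15177 genes, and 0 of 9 had an unadjusted p under 0.05, against 6.25% of genes. The smallest p was that of Grik3 (difference 0.21, SE 0.105, adjusted p = 0.808).

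Between the tables, 2 kainate subunits differed. Of the 9 members 2 were called by edgeR, both lower in females, while 36.2% of the 15233 genes tested were called in either direction and 17.8% in this one. A count of 2 among 9 is near that background. Grik1 ranged from 31.2 through a median of 35.4 to 39 CPM in 14 males and from 26.7 through 30.6 to 31.3 CPM in 8 females. Only dominant male 6 fell within the range of the females. Its log2 fold change was -0.24 (SE 0.0387, adjusted p = 2.57e-05), 15.2% lower. Grik2 ranged from 162 through 177 to 208 CPM in males and from 158 through 163 to 173 CPM in females. The ranges overlapped, and the log2 fold change was -0.13 (SE 0.0446, adjusted p = 0.0232). Under the exon length correction Grik1 stayed called, Grik2 was not (adjusted p = 0.0623), and Gria2 turned from -0.015 to 0.094 and was called (adjusted p = 0.027). Without dominant male 6 the test called 4 members, adding Gria1 (-0.073, adjusted p = 0.0184) and Gria3 (-0.096, adjusted p = 0.0283), while 37.9% of all genes were called in that fit. The remaining members had log2 fold changes between -0.069 and 0.039, and the median over the 9 was -0.015 beside -1e-04 over all genes. The summed neuron markers were 2694 to 3125 CPM in males and 3347 to 3561 CPM in females, and the summed oligodendrocyte precursor markers 111 to 138 CPM and 95.7 to 109 CPM. Their part in these values was not tested.

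Partner genes of the receptors were described by lists. These held AMPA receptor auxiliary subunits and assembly factors, kainate receptor auxiliary subunits and partners, and scaffold and trafficking proteins. The others held genes of the RNA editing enzyme family and other ionotropic glutamate receptors. By rank in males edgeR and DESeq2 called 0 genes of any list, and at an unadjusted p under 0.05 edgeR named 1. This was Syndig1, a synapse differentiation factor that associates with AMPA receptors (log2 fold change -0.12, SE 0.0523, adjusted p = 1). The smallest p of the kainate, scaffold and editing lists were those of Klhl17 (-0.11, SE 0.0648), the AMPA receptor trafficking protein Pick1 (0.049, SE 0.047) and Adarb2 (0.098, SE 0.0472), each with an adjusted p of 1. In females edgeR called 0 genes of the lists. DESeq2 gave an adjusted p to 5643 of 14865 genes. On the lists this held for 10 of 23 AMPA auxiliary, 3 of 5 kainate and 16 of 21 scaffold genes. Genes without an adjusted p, Shisa7 among them, could not be called by DESeq2. With that limit DESeq2 called 3, all higher in dominant mice, against 0.518% of all genes tested. These were 1 of 21 scaffold genes and 2 of 8 other receptors, the NMDA receptor subunit genes Grin2b (log2 fold change 0.24, adjusted p = 0.00253 with DESeq2) and Grin2a (0.21, adjusted p = 0.0382 with DESeq2 and 0.15 with edgeR). With edgeR at an unadjusted p under 0.05 the dominant mice were higher in 6 of 23 AMPA auxiliary genes and 1 of 5 kainate auxiliary genes. The other lists gave 6 of 21 scaffold genes, 0 of 3 genes of the editing list and 2 of 8 other receptors. The share over all genes was 6.43%. None of the 5 lists held a gene that was lower at that threshold. The smallest p of the AMPA list was that of Shisa7, an auxiliary subunit of the Shisa family, with 33.4 to 38 CPM in dominant and 28.2 to 30.8 CPM in submissive females (log2 fold change 0.25, SE 0.0537, adjusted p = 0.0867). In 3 of the other lists it was that of Neto1, an auxiliary subunit of kainate receptors (0.14, SE 0.0474, adjusted p = 0.261), Adarb1, the enzyme that edits Gria2 transcripts (0.047, SE 0.0346, adjusted p = 0.687), and Grin2b (0.24, SE 0.0496, adjusted p = 0.0697). Grin2b had 234 to 294 CPM in dominant and 207 to 228 CPM in submissive females, and Grin2a had 89.8 to 111 CPM and 80.3 to 90.7 CPM.

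Of 23 AMPA auxiliary genes 14 were called between the tables, 8 higher and 6 lower in females, against 36.2% of all genes called in either direction and 17.8% called lower. The counts of the lists that follow stand beside the same shares. The 4 with the smallest p were Abhd12 (log2 fold change 0.38, adjusted p = 1.52e-09), Porcn (-0.27, adjusted p = 1.52e-06), Olfm1 (0.26, adjusted p = 2.77e-06) and the TARP gene Cacng5 (0.45, adjusted p = 2.88e-06). Of the kainate partners edgeR called 3 of 5 and DESeq2 2 of 5. The edgeR calls were the synaptic organisers C1ql3 (0.38, adjusted p = 3.24e-06) and C1ql2 (-0.26, adjusted p = 0.012) and the auxiliary subunit gene Neto2 (0.087, adjusted p = 0.0464). Of the scaffolds edgeR called 10 of 21, 6 higher and 4 lower, and DESeq2 called 9 of 21. The edgeR calls were led by Shank3 (1.02, adjusted p = 1.98e-17), Nptx1 (0.33, adjusted p = 1.99e-07), Dlg4 (0.25, adjusted p = 7.12e-06) and Camk2a (-0.33, adjusted p = 3.5e-05). Of the editing list, Adar (-0.24, adjusted p = 2.33e-07) and Adarb2 (-0.24, adjusted p = 5.12e-05) were lower in females. So were 5 of 9 other ionotropic receptors, among them Grin3a (-0.32, adjusted p = 1.33e-07), Grin1 (-0.32, adjusted p = 2.15e-07), Grid1 (-0.23, adjusted p = 6.61e-05) and Grin2b (-0.37, adjusted p = 9.54e-04), and none was higher. In the comparison of the groups Gr1 and Gr2 with the numbered cages edgeR and DESeq2 called 0 genes of these lists, and at an unadjusted p under 0.05 edgeR named 2 of 23 AMPA, 2 of 5 kainate and 5 of 21 scaffold genes, against 5.54% of all genes. The smallest p of the lists were those of Arc, the activity-induced regulator of AMPA receptor uptake (0.68, SE 0.152, adjusted p = 0.352), Prrt1 (0.42, adjusted p = 0.729), Neto2 (-0.096, adjusted p = 0.854), Grin2c (0.098, adjusted p = 0.899) and Adar (0.036, adjusted p = 0.945).

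Several members varied together across samples, within and between the 2 receptor families. The 36 pairs were compared on log2 CPM as deviations from the means of the 4 groups, over 22 samples. In 19 pairs Pearson's r had an adjusted permutation p under 0.05 (100000 permutations, adjusted over 36 pairs), and in 6 pairs Spearman's rho had so as well. Of the 19 pairs 9 lay within a family, among 16 such pairs, and 10 between families, among 20, and of the 6 pairs 4 lay within a family and 2 between. The closest pair was Grik3 and Grik5, with r = 0.922 and rho = 0.916 (permutation p = 1e-05, the smallest possible, adjusted p = 0.00036). It held with r = 0.813 without the 2 samples farthest from the median, 0.933 in males, 0.826 in females and 0.897 without dominant male 1. Gria1 and Gria3 followed, with r = 0.759 and rho = 0.578 (permutation p = 6e-05, adjusted p = 0.00108), 0.552 without the 2 farthest samples, 0.766 in males and 0.785 in females. Gria2 and Gria3 had r = 0.618 and rho = 0.615 (permutation p = 0.00207, adjusted p = 0.0106), 0.641 without the 2 farthest samples. Grik3 and Grik4 had r = 0.644 and rho = 0.566 (permutation p = 0.00135, adjusted p = 0.00864), 0.429 without the 2 farthest samples, 0.773 in males and -0.092 in females. Between the families, Gria4 went with Grik2, r = 0.668 and rho = 0.72 (permutation p = 0.00048, adjusted p = 0.00576), 0.744 without the 2 farthest samples. It went against Grik3, r = -0.69 and rho = -0.572 (permutation p = 0.00072, adjusted p = 0.00648), which fell to -0.46 without the 2 farthest samples and to -0.511 without dominant male 1. With Grik5 it had r = -0.584 and rho = -0.45, for which the adjusted permutation p was 0.0204 for r and 0.113 for rho, and r was -0.313 without the 2 farthest samples and -0.392 without dominant male 1. Gria4 and Gria1 had r = -0.482 with dominant male 1 and -0.174 without it, so that relation rests on this library. Across all samples the points share library, depth and dissection. The permutations ran freely over the 22 samples. Their p-values take no account of cage mates or of the 4 group means removed, and may be too small.

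**Figure D4:**
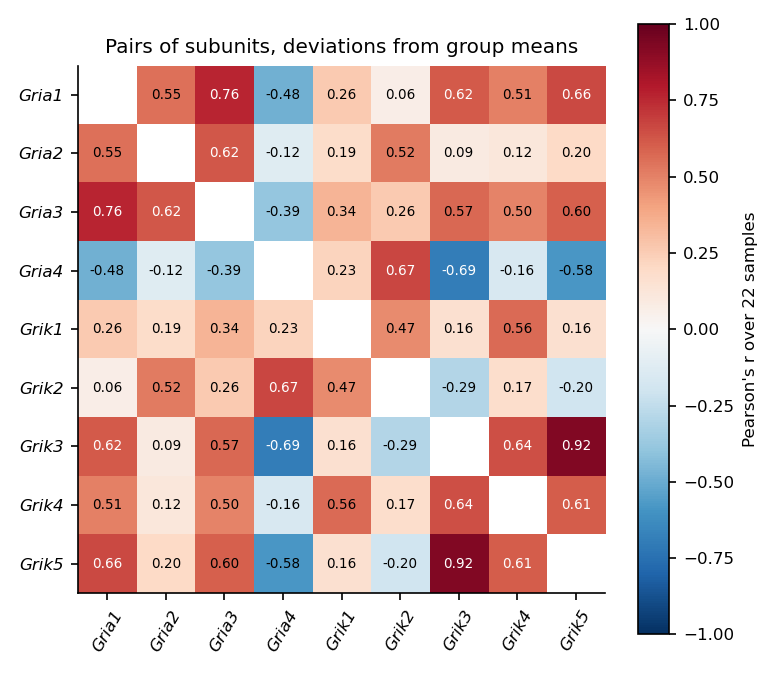
Pearson's r between the 9 subunit genes over 22 samples, computed on log2 CPM after the mean of each group was removed. Red is positive and blue negative; Grik3 and Grik5 have the highest value (0.92), and Gria4 is negative with Grik3 (-0.69), Grik5 (-0.58) and Gria1 (-0.48).

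Because Grik3 and Grik5 were the closest pair and Gria4 had a negative r with both, the 250 bases before their RefSeq start sites are printed (build GRCm38.p6, the same as mm10). The table used held 6 of the 9 members. Capitals mark the GC box GGGCGG, searched on both strands (CCGCCC on the other). The windows are chr4:125490446-125490695 on the plus strand for Grik3, chr7:25072370-25072619 on the minus strand for Grik5 and chr9:4796235-4796484 on the minus strand for Gria4.

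Grik3: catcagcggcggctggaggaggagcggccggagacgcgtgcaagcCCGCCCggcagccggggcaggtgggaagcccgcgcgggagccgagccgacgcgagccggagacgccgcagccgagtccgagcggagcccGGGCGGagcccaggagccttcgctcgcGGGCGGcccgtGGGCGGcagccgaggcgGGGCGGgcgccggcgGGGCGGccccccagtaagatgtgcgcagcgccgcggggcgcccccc
Grik5: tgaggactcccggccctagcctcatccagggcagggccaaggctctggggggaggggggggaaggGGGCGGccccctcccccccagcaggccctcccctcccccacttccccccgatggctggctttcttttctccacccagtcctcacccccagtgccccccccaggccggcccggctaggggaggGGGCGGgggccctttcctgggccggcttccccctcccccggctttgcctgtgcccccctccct
Gria4: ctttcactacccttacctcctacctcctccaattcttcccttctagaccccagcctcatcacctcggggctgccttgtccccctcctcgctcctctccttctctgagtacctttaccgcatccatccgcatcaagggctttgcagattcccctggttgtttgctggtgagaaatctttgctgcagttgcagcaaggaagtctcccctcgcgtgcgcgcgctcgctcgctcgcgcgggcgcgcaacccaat

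The Grik3 window held 6 GC boxes and was 82% G and C, the Grik5 window held 2 and was 75.2% G and C, and the Gria4 window held 0 and was 58.8% G and C. Of the other members in the table, Grik4 had 1 GC box and 69.6% G and C, Gria2 had 0 and 64.8%, and Grik2 had 0 and 62.8%. Of 32851 promoter windows of this length, 32.7% held at least 1 GC box and 16.7% at least 2, with a median of 52.4% G and C. A match of letters is a description and not evidence of binding. Grik3 and Grik5 are also the members with the highest G and C content in their longest GENCODE transcript, 54.2% and 61.7%.

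Each member was also compared with the 16 marker sums, 144 relations in all, of which 38 had an adjusted permutation p under 0.05 for r and 18 for both r and rho. Permutation p-values are those of r and have the same limit as those of the pairs. Grik3 followed the 4 cortex markers most closely, with r = 0.929 and rho = 0.813 (permutation p = 1e-05, adjusted p = 0.00036), 0.828 without the 2 farthest samples, 0.926 in males, 0.954 in females and 0.901 without dominant male 1. Grik5 had r = 0.82 and rho = 0.682 with the same markers (permutation p = 2e-05, adjusted p = 0.000576), 0.544 without the 2 farthest samples. Gria3 had r = 0.727 (permutation p = 0.00019, adjusted p = 0.00304) and rho = 0.546 with them, for which the adjusted permutation p was 0.0568, and r fell to 0.443 without the 2 farthest samples. Gria4 followed the 4 granule cell markers of the cerebellum, with r = 0.868 and rho = 0.889 (permutation p = 1e-05, adjusted p = 0.00036), 0.803 without the 2 farthest samples, 0.874 in males, 0.949 in females and 0.903 without dominant male 1. Grik2 was negative with the 4 hippocampus markers, r = -0.807 and rho = -0.837 (permutation p = 1e-05, adjusted p = 0.00036), -0.828 in males and -0.398 in females. Gria2 was negative with the 3 oligodendrocyte markers, r = -0.741 and rho = -0.757 (permutation p = 0.00012, adjusted p = 0.00216), -0.796 in males and -0.693 in females.

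**Figure D5:**
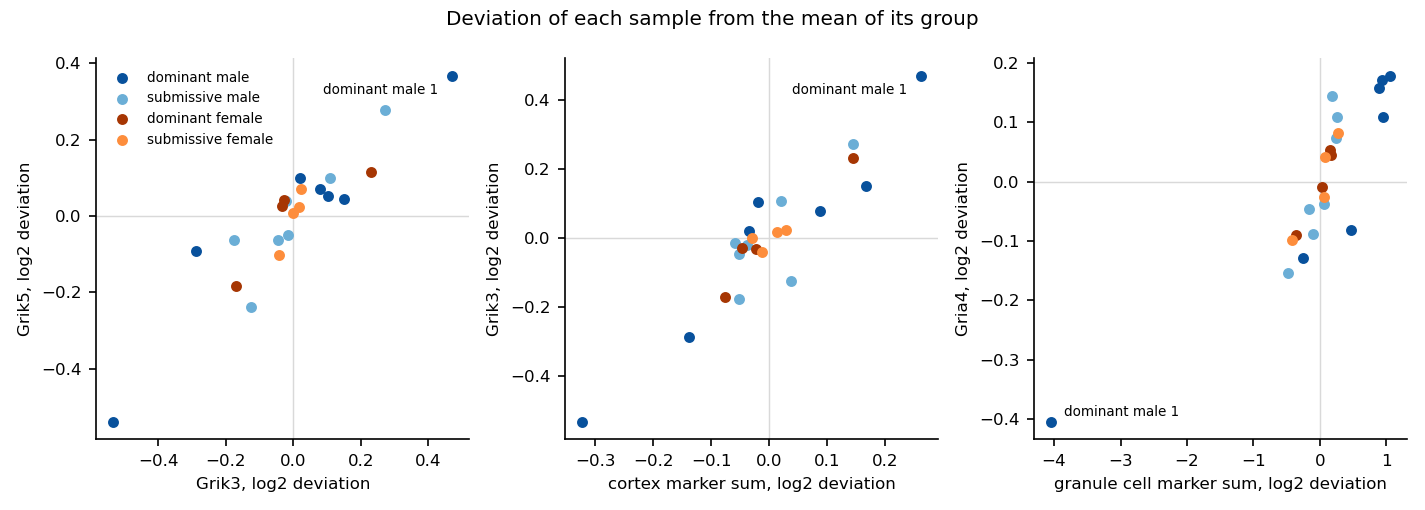
Log2 deviation of each sample from the mean of its group, for Grik5 against Grik3, Grik3 against the summed cortex markers and Gria4 against the summed granule cell markers. Points are the 22 samples coloured by group; dominant male 1 is highest in Grik3 and the cortex markers and lowest in Gria4 and the granule cell markers.

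By the same measure the genes most like each member over 22 samples were sought among 15232 others. The genes most like Gria4 included Inadl (r = 0.969, rho = 0.957) and Megf11 (r = 0.968, rho = 0.942). Grik3 was closest to the chromatin remodeller Chd5 (r = 0.961, rho = 0.864) and then to the neuroligin genes Nlgn3 and Nlgn2, and Chd5 was also the closest to Grik5 (r = 0.939, rho = 0.822), before Pde4a and Adgrb1. Grik2 was closest to Jmjd1c (r = 0.96, rho = 0.924), then to Tcf12 and Rock1. Gria3 was closest to the postsynaptic density gene Lrrc7 (r = 0.914, rho = 0.875), then to Dcx and Sorbs2. Gria1 was closest to Celf3 (r = 0.903, rho = 0.792), then to Bzrap1 and Kcnc2, and Gria2 to Lrp1b (r = 0.868, rho = 0.843), then to Map3k7 and Herc1. The lowest top values were those of Grik4, with Wnk2 (r = 0.818, rho = 0.649), Nfasc and D630045J12Rik, and Grik1, with Adat3 (r = 0.763, rho = 0.841), Cubn and Cdan1.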

How the data were processed

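The authors removed ribosomal RNA from total RNA of 22 right hemispheres, made stranded single-end libraries, used cutadapt 1.15 and bbduk for trimming and STAR 2.6.0a for alignment to mm10, and took counts per gene from featureCounts 1.6.2. The deposited values are raw counts for 24421 genes with exon lengths. Settings for strand and for multiply mapped reads are not given in the sources used here. Totals of 12403943 to 16488762 counts per sample limit precision, and the error of a count covers counting only.

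CPM and RPKM were computed from these counts with TMM factors of edgeR 4.0.16 (R 4.3.3) and log2 CPM with a prior count of 2. Genes passed edgeR's expression filter (minimum count 10, minimum total 15) and were tested over the whole table with edgeR's quasi-likelihood test and adjusted by Benjamini-Hochberg, with a threshold of 0.05. The tests were checked on simulated data. Rank was tested within each sex without a covariate, and cage beside rank. Alternatives were DESeq2 1.42.0, its size factors, no filter, a robust prior, offsets for exon length or GC content (loess span 0.3, GC known for 95.6% of genes), the replicate block, all samples in one fit, subsets of cages and leaving out each sample. Samples with the same replicate number come from the same cage by their library names, so the numbers pair them. Across genes the deviations of cage mates from their group means correlated with a mean r of 0.157 in males (other pairs -0.0261) and 0.0211 in females (other pairs -0.00703). Separate animals were sequenced once each. Exact permutation tests were two-sided. Coding sequences came from GENCODE transcripts and were aligned with mafft 7.526.

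All 9 members were tested in every comparison. From the partner lists, up to 4 called genes with the smallest p, otherwise the gene with the smallest p, are named per list in the comparisons of rank, tables and female cage sets, and the 3 most alike genes by r are the likeness rule. Members and lists were chosen with earlier results of these data known. The other assays of the study were not analysed here. A few genes that these rules name, and 1 sequence, are not reported here.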

Additional observations from a re-analysis of the deposited data

How the results depend on the processing

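No count of called members changed under the other tools, size factors, filters, priors, offsets, replicate block or subsets of cages, at 0 for rank, interaction, cage terms and cage sets and 2 for the tables. The order per length moved in 4 positions with GENCODE exon lengths. Leaving out 1 sample or cage gave 2 to 4 called members between the tables and 0 to 1 for the cage term in males (without replicate 1). Over 396 other settings of single values and counts 377 kept direction and side (2 of these had no adjusted p from DESeq2), 18 reversed and 1 was lost; over 747 that left out a sample or cage 695 held, 48 reversed and 4 became called. The replicate block changed no member's call.

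Reversed values were as follows. For rank in males Grik5 was 0.0045 with length offsets, 0.0142 with GC offsets, 0.0046 with the replicate block and GC offsets and 0.086 in the cages of replicates 1 to 4. In those of replicates 5 to 7 Gria1 was -0.026, Gria2 -0.0049, Gria3 -0.0445, Grik2 0.0071 and Grik3 -0.0274. For rank in females Gria1 was -0.0019 in the numbered cages and Gria4 -0.0081 in groups Gr1 and Gr2. With length offsets Gria1 was -0.0143 and Gria2 -0.0209 for the interaction, Gria1 0.0131 and Gria2 0.0937 between the tables (called, adjusted p = 0.027), and Gria4 -0.0002 for the cage sets; Grik2 was no longer called between the tables (-0.0886). With GC offsets Gria2 was 0.0374 and Grik5 -0.0832 between the tables. The cause of these shifts was not tested.

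Leaving out 1 sample, rank in males ran from -0.0085 to 0.0294 for Gria1, -0.0117 to 0.0267 for Gria2, -0.024 to 0.0383 for Gria3, -0.087 to 0.0026 for Gria4, -0.0446 to 0.0215 for Grik2, -0.0648 to 0.1005 for Grik3 and -0.0712 to 0.0721 for Grik5. The interaction of Grik1 ran from -0.0466 to 0.0279. Between the tables Gria4 ran from -0.0106 to 0.0442, Grik3 from -0.0119 to 0.0726, Grik4 from -0.011 to 0.0357 and Grik5 from -0.0239 to 0.0473. For the cage sets Gria4 ran from -0.0286 to 0.0479, Grik1 from -0.026 to 0.0644 and Grik4 from -0.0605 to 0.0483, and for rank by cage set Grik1 from -0.0729 to 0.1599, Grik2 from -0.0771 to 0.0316 and Grik4 from -0.0618 to 0.1911.

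Over all genes the calls for rank in females were 14, and 77 with DESeq2, 84 without the filter, 25 with GC offsets, 0 with length offsets, 36 with the replicate block, 8 with the block and length offsets, 46 with the block and GC offsets, 0 with all samples in one fit, 5 in the numbered cages and 120 in groups Gr1 and Gr2. Of the partner lists DESeq2, applied to them after the data were seen, called 3 genes by rank in females and edgeR 0. The cage term in males called 868, and 547 with length offsets; the cage sets called 1, and 0 without a covariate, 2 with length offsets and 2 with DESeq2. Grik4 had the fewest counts of the members, 195 to 316 per sample.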
